A study of Mus musculus with 6 samples.

Results

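The genes described here encode the nuclear subunits of the mitochondrial respiratory chain and ATP synthase. They were measured by RNA-seq in freshly isolated muscle stem cells (MuSCs) of mice with and without deletion of *Sirt6* in the muscle lineage. Members were chosen by a rule on gene symbol and protein-coding status, with earlier results of these data known. The rows are named for NADH dehydrogenase (*Nduf*), succinate dehydrogenase (*Sdh*) and ubiquinol-cytochrome c reductase (*Uqcr*, *Cyc1*) genes. Others are named for cytochrome c (*Cycs*), cytochrome c oxidase (*Cox4* to *Cox8*) and ATP synthase (*Atp5*) genes. The rule found 96 of the 25166 genes in the deposited table, of which 37 belong to complex I, 4 to complex II, 9 to complex III, 19 to complex IV, 17 to complex V and 1 encodes cytochrome c. A further 9, namely *Ndufaf1* to *Ndufaf8* and *Cox7a2l*, carry such a symbol but encode assembly factors. *Ndufa4* and *Ndufa4l2*, named as complex I genes, were placed with complex IV, to which their products belong. The counts include *Ndufb1-ps* in complex I and *Cox5b-ps* in complex IV. Both carry pseudogene names but are listed as protein-coding, and their signal averaged under 5.

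The respiratory chain passes electrons from NADH and succinate through complexes I, II, III and IV to oxygen, with ubiquinone and cytochrome c as the mobile carriers between them. The proton gradient that complexes I, III and IV build up across the inner mitochondrial membrane drives ATP synthesis by complex V. Quiescent MuSCs hold few mitochondria and raise their oxidative capacity when they are activated, whereas mature myofibers are rich in mitochondria and use muscle-specific isoforms of several complex IV subunits. Subunits encoded by the mitochondrial genome are not among the measured genes.

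The series holds 3 Sirt6mKO and 3 control (Ctrl) libraries, all from 12-week-old male mice of the C57BL/6 strain. Sirt6mKO mice carry 2 floxed *Sirt6* alleles, with exons 4 to 6 flanked, and a constitutively active Cre under the *Pax7* promoter, so that deletion covers the whole muscle lineage and not MuSCs alone. The controls are wild type in the labels and Cre-negative mice with floxed *Sirt6* alleles in the study's legend. By either account only Sirt6mKO mice carry the Cre, so effects of the Cre and of *Sirt6* loss cannot be told apart here. Each library was made from 100 to 200 cells sorted from limb and trunk muscle as negative for Sca1, CD45 and CD31. The cells were then taken as positive for Integrin-α7 and CD34, for the green fluorescence of *Pax7* ZsGreen reporter mice, or for a YFP reporter of the Cre. Which gate was used for which library is not given in the sources used here, so a difference of gate between the groups could not be checked. All 14 markers of MuSCs were measured in every library, among them *Pax7* and *Myf5*, though *Pax7* itself had a lower signal in Sirt6mKO, of 1841, 2307 and 1810 against 4066, 3449 and 3150 in Ctrl (log2 fold change -0.84, SE 0.13, limma-trend adjusted p = 0.0041).

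The measured value, called signal below, is the number of reads of a gene divided by 1 size factor per library and rounded. The libraries hold 1267027 to 3209958 reads on genes, so that 1 read stands for a signal of 0.729 in Ctrl 2 and of 1.79 in Ctrl 3. Changes were tested with limma-trend on log2(signal + 1) over the 14227 genes whose signal averaged at least 5, and p-values were adjusted by Benjamini-Hochberg over all of them. *Sirt6* itself had a mean signal of 17.3 ± 3.79 in Sirt6mKO and 18.3 ± 1.53 in Ctrl (SD, n = 3 per group). The log2 fold change was -0.10 (SE 0.29, limma-trend adjusted p = 0.91), at a low signal. Only part of the transcript is deleted, and the signal of the whole gene does not show the floxed exons apart. Their loss was therefore not checked in these libraries. Replicates are separate samples by their labels only, and p-values measure the spread between these samples.

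Among the respiratory chain genes, 1 gene passed the test, on few reads, and no longer passed when any 1 library was left out. *Cox6b2*, an isoform of complex IV subunit 6B known for its expression in testis, fell in Sirt6mKO. No other gene passed, at log2 fold changes from -0.38 to 0.83. Of the 96 members, 87 reached the mean signal for testing, and 70 of these (80.5%) had a log2 fold change above 0, against 50.4% of all tested genes. Their median log2 fold change was 0.14, an increase of 9.84% on the scale of signal + 1, while that of all tested genes was 0.00. As set out below, the higher values came from 2 of the 3 Sirt6mKO libraries, and the groups overlapped. At an adjusted p of at most 0.05, with or without a minimum change of 2-fold, *Cox6b2* was the only member called. With the minimum change, 2.59% of all tested genes were called, 1.57% higher and 1.02% lower. Without it, 4.52% were called, 2.64% higher and 1.88% lower. At an unadjusted p under 0.05, 4 members were higher and 1 was lower, which is 5.75% of the members against 18.1% of all tested genes (9.97% higher and 8.14% lower). In 7 members all Sirt6mKO libraries lay above all Ctrl libraries and in 2 members below, whereas this held for 11.1% and 10.1% of all tested genes. The median was 0.12 when only the 53 members with a mean signal of at least 50 were taken, with 44 above 0.

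**Figure D1:**
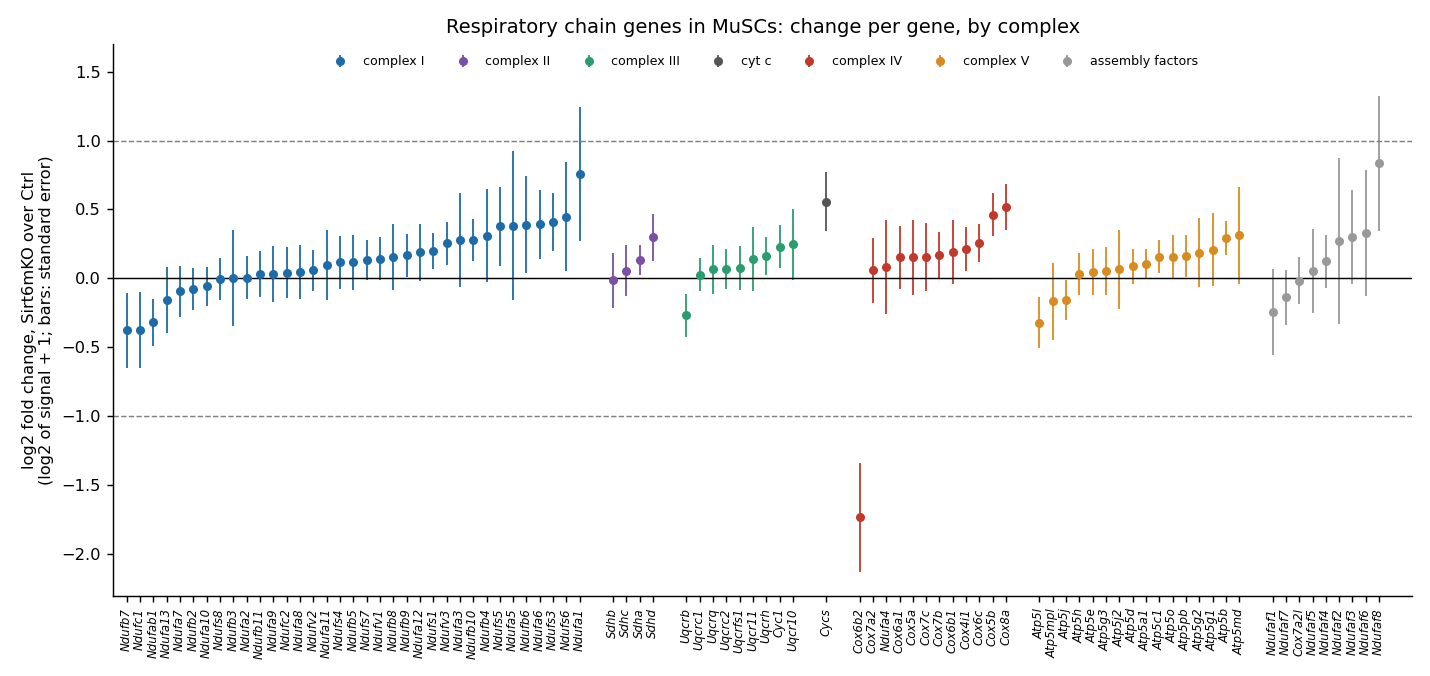
Log2 fold change of Sirt6mKO over Ctrl (limma-trend on log2(signal + 1), n = 3 libraries per group) of the tested respiratory chain genes but 1, grouped by complex and ordered by value; bars are standard errors and dashed lines mark a 2-fold change. Most points lie slightly above 0 with bars of similar size to the change, and *Cox6b2* at -1.73 is the only gene beyond a dashed line.

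*Cox6b2* (ENSMUSG00000051811, GRCm38 chromosome 7, 4751792 to 4753094, minus strand) and its widely expressed counterpart *Cox6b1* (chromosome 7, 30616861 to 30626151, minus strand) encode alternative forms of the same subunit, which sits on the outer face of complex IV where cytochrome c docks. Their promoters are shown because *Cox6b2* was the member called and *Cox6b1* was not. Both run 5′ to 3′ from 250 bases before the RefSeq transcription start to 30 bases from it on the transcribed strand of GRCm38.p6, at chr7:4753065-4753344 and chr7:30626085-30626364. Capitals mark a match to the ETS motif CCGGAAG, which is bound among others by the respiratory chain regulator NRF2 (GABP), here read on the other strand.
Cox6b2: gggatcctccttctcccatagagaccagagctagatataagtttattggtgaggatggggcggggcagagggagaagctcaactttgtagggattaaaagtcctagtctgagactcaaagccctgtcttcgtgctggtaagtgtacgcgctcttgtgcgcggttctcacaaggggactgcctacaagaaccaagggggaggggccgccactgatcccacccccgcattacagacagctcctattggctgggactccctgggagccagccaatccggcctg
Cox6b1: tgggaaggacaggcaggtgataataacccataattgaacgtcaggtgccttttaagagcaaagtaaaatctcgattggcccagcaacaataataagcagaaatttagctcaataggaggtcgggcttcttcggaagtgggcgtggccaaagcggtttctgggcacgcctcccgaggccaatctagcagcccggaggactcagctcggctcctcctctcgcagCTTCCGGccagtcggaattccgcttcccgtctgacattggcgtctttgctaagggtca
The printed *Cox6b1* stretch holds 1 ETS match and the *Cox6b2* stretch none. Neither holds a match to GCATGCGC, the motif of the nuclear respiratory factor NRF1, or to AAGATGGC, the motif of YY1.

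*Cox6b2* had a signal of 3, 4 and 3 in replicates 1, 2 and 3 of Sirt6mKO, and of 14, 13 and 13 in those of Ctrl. The groups did not overlap. The spread within either was small, but at the few reads given below it is a weak measure of the spread between samples. The mean signal was 3.33 ± 0.577 in Sirt6mKO and 13.3 ± 0.577 in Ctrl (SD, n = 3 per group). The log2 fold change was -1.73 (SE 0.40, limma-trend adjusted p = 0.027). Few reads lie behind these values, about 4, 5 and 3 in the Sirt6mKO libraries and 11, 18 and 7 in the Ctrl libraries. When any 1 of the 6 libraries was left out, the log2 fold change stayed between -1.84 and -1.68 but the adjusted p rose to between 0.057 and 0.0998, and without a filter on low values it was 0.057. No other annotated gene overlaps the exons of *Cox6b2*, and none of its 75-base windows occurs in another gene's transcripts.

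*Cox6b1* had a signal of 67, 44 and 61 in Sirt6mKO and of 42, 43 and 66 in Ctrl, with the groups overlapping. Its log2 fold change was 0.19 (SE 0.23, limma-trend adjusted p = 0.73). Per kilobase of transcript, *Cox6b2* made up 4.52, 8.76 and 4.94% of the summed level of the pair in Sirt6mKO and 26.0, 24.2 and 17.2% in Ctrl. The share was lower in every Sirt6mKO library, with means of 6.07% ± 2.34 and 22.5% ± 4.65 (SD, n = 3 per group; exact two-sided permutation p = 0.1, the smallest that 3 libraries against 3 allow).

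**Figure D2:**
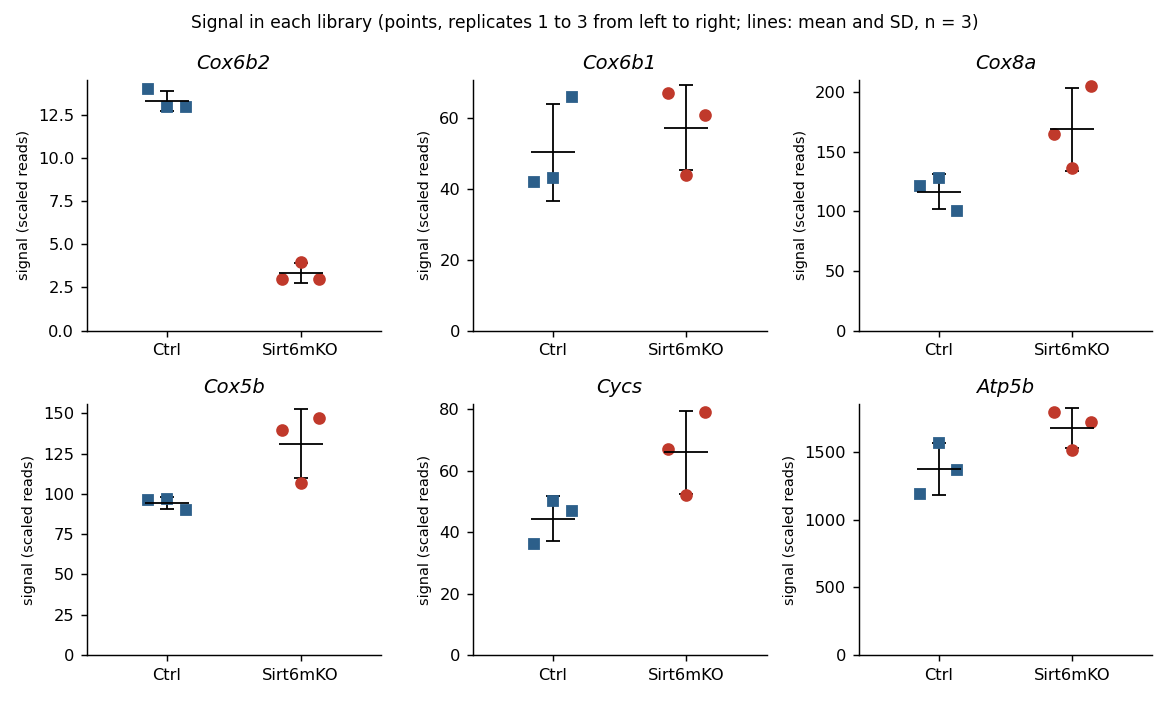
Signal (scaled reads) of 6 respiratory chain genes in each Ctrl library (squares) and Sirt6mKO library (circles), replicates 1 to 3 from left to right, with mean and SD (n = 3 per group); each axis starts at 0. *Cox6b2* is lower in every Sirt6mKO library, the groups of *Cox8a*, *Cox5b* and *Cycs* lie apart with replicate 2 the lowest of Sirt6mKO, and those of *Cox6b1* and *Atp5b* overlap.

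The other complex IV genes leaned upward. Of the 12 tested, 11 had a log2 fold change above 0, with a median of 0.16 over the 12. The summed signal of all 19 complex IV genes was 1074, 845 and 1129 in replicates 1, 2 and 3 of Sirt6mKO and 826, 826 and 885 in Ctrl. Replicates 1 and 3 of Sirt6mKO were thus above all controls, while replicate 2 lay within their range.

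*Cox8a*, the widely expressed form of the smallest complex IV subunit, had a signal of 165, 136 and 205 in Sirt6mKO and of 121, 128 and 100 in Ctrl. The groups did not overlap, and the log2 fold change was 0.52 (SE 0.17, limma-trend adjusted p = 0.11). *Cox5b*, which encodes a zinc-binding subunit, had a signal of 140, 107 and 147 in Sirt6mKO and of 96, 97 and 90 in Ctrl. It too was separate between the groups, with a log2 fold change of 0.46 (SE 0.16, limma-trend adjusted p = 0.13), but 17.2% of its 75-base windows are shared with the gene *Gm11273*. Neither gene passed the adjusted threshold.

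*Cox4i1*, which encodes the main form of the regulatory subunit 4, had a signal of 244, 180 and 284 in Sirt6mKO and of 198, 187 and 215 in Ctrl. Replicate 2 of Sirt6mKO was the lowest of all 6 libraries, and the log2 fold change of 0.22 (SE 0.16, limma-trend adjusted p = 0.53) lay within the spread of the libraries. Exons of *Cox4i1* overlap *Emc8* on the other strand. *Ndufa4* had a signal of 20, 11 and 17 in Sirt6mKO and of 20, 12 and 13 in Ctrl, with a log2 fold change of 0.08 (SE 0.34, limma-trend adjusted p = 0.94).

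The muscle and other restricted isoforms of complex IV had few reads in these cells. *Cox6a2*, *Cox7a1* and *Cox8b*, the forms of heart and skeletal muscle, had 0 to 5 reads in every library. *Cox4i2*, a form known from lung and induced by low oxygen, had 2 to 7 reads and *Ndufa4l2*, another gene of the hypoxia response, 1 to 5. The share of the restricted form per kilobase was 1.73% ± 0.950 in Sirt6mKO and 1.86% ± 0.733 in Ctrl for *Cox4i2* beside *Cox4i1* (SD, n = 3 per group). For *Cox8b* beside *Cox8a* it was 2.12% ± 0.620 and 3.13% ± 2.36, and for *Cox6a2* beside *Cox6a1* 3.55% ± 1.90 and 1.82% ± 1.58 (SD, n = 3 per group). The shares of the other pairs were larger and wider in spread. *Cox7a1* held 6.76% ± 5.86 and 4.71% ± 8.16 beside *Cox7a2* (SD, n = 3 per group). *Ndufa4l2* held 18.3% ± 11.1 and 16% ± 10.1 beside *Ndufa4* (SD, n = 3 per group), with 31.1% as its highest share, in Sirt6mKO 2. Its share depends on the annotated length. Per kilobase of the longest transcript, the mean signal was 12.6 for *Ndufa4* and 2.52 for *Ndufa4l2*. With the longest protein-coding transcript it was 25.4 and 2.68. The shares of *Cox4i2*, *Cox6a2*, *Cox7a1*, *Cox8b* and *Ndufa4l2* gave exact permutation p values of 0.6 to 1 among the 9 shares tested, and at 0 to 7 reads a difference was not detectable at this depth. *Cox8c*, a form of testis, was at 0 in 5 libraries and at 2 reads in Ctrl 3.

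*Cycs* encodes the cytochrome c that shuttles electrons from complex III to complex IV and takes part in apoptosis when released. Its log2 fold change was the highest among the members whose signal averaged at least 50. Sirt6mKO libraries gave a signal of 67, 52 and 79, and Ctrl libraries 36, 50 and 47. The groups lay apart, though Sirt6mKO 2 and Ctrl 2 differed by a signal of only 2. The log2 fold change was 0.56 (SE 0.21, limma-trend adjusted p = 0.18), and 26.1% of the 75-base windows of *Cycs* are shared with 5 genes elsewhere, mostly annotated as processed pseudogenes.

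The promoters of *Cox8a* and *Cycs* are shown as those of the pair with the largest log2 fold changes among such members. They are printed as above, at chr19:7217587-7217866 and chr6:50566540-50566819, both on the minus strand of GRCm38.p6. Capitals mark an ETS match in *Cox8a*, on the other strand, and an NRF1 match (GCATGCGC) in *Cycs*.
Cox8a: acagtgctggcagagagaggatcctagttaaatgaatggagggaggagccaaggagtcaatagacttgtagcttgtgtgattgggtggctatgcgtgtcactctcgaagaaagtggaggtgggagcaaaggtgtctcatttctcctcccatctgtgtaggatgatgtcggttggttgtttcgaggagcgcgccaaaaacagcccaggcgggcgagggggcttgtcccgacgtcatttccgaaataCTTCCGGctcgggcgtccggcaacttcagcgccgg
Cycs: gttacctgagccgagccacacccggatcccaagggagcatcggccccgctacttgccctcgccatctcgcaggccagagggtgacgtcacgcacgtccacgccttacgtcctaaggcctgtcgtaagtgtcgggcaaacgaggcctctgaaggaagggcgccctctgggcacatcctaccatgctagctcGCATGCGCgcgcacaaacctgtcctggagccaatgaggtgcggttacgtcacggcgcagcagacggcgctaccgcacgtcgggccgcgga
Over the 76 members with a RefSeq promoter, 25% held CCGGAAG in the 300-base window that ends 50 bases into the gene, on either strand, against 9.93% of the 27025 genes with such a window. The NRF1 motif stood in 17.1% of members and 3.05% of genes, and the YY1 motif in 14.5% and 3.19%. The genes set beside the members were not limited to those expressed in these cells, and no set of like expression was compared. A match is a stretch of letters and no measured site, and the motifs can occur in the same promoter.

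In complex I, 28 of 36 tested genes had a log2 fold change above 0, with a median of 0.12, and none was called. *Ndufv1*, whose product binds NADH, had a signal of 235, 198 and 239 in Sirt6mKO and of 176, 256 and 183 in Ctrl. *Ndufs1*, an iron-sulfur subunit of the same electron input module, had 341, 262 and 321 against 282, 282 and 238. In both genes the groups overlapped, with log2 fold changes of 0.14 and 0.20. *Ndufs7* and *Ndufs8*, which carry the last iron-sulfur clusters before ubiquinone, had log2 fold changes of 0.14 and 0.00.

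The extremes of complex I were accessory subunits of low signal. *Ndufa1* had a signal of 13 in all 3 Sirt6mKO libraries and of 5, 18 and 4 in Ctrl. Its log2 fold change of 0.76 (SE 0.48, limma-trend adjusted p = 0.46) rested on Ctrl 1 and 3, since Ctrl 2 was the highest library. *Ndufb7* had 27, 19 and 20 in Sirt6mKO against 31, 34 and 22 in Ctrl (log2 fold change -0.38, limma-trend adjusted p = 0.52). *Ndufc1* had 38, 30 and 38 against 31, 44 and 70, and its log2 fold change of -0.37 came from Ctrl 3. *Ndufab1*, the mitochondrial acyl carrier protein, had 57, 51 and 60 in Sirt6mKO and 65, 73 and 72 in Ctrl. It was the only tested member besides *Cox6b2* with all Sirt6mKO libraries below all controls, at a log2 fold change of -0.32 (SE 0.17, limma-trend adjusted p = 0.36). Its exons overlap *Gm44986* on the other strand, and 10.9% of its windows are shared with pseudogenes.

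No gene of complexes II and III passed the test. In complex II, 3 of 4 genes had a log2 fold change above 0, with a median of 0.10. *Sdha*, the flavoprotein that oxidises succinate, had a signal of 399, 382 and 419 in Sirt6mKO and of 380, 376 and 337 in Ctrl. All Sirt6mKO libraries were higher, by a margin of 2 between the nearest libraries, with a log2 fold change of 0.14 (SE 0.11, limma-trend adjusted p = 0.57). *Sdhb*, the iron-sulfur subunit, had 97, 66 and 88 against 102, 86 and 66 and a log2 fold change of -0.01.

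In complex III, 8 of 9 genes were above 0, with a median of 0.08. *Uqcrc1*, a core subunit, had a signal of 241, 227 and 242 in Sirt6mKO and of 225, 259 and 215 in Ctrl (log2 fold change 0.03, limma-trend adjusted p = 0.94). *Cyc1*, which encodes cytochrome c1, had 117, 111 and 113 against 93, 116 and 84 and a log2 fold change of 0.23. *Uqcrfs1*, the Rieske iron-sulfur protein, had a log2 fold change of 0.08. *Uqcrb* was the only complex III gene below 0, at -0.27 (SE 0.15, limma-trend adjusted p = 0.40), and 29.1% of its windows are shared with 3 pseudogenes.

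In complex V, 13 of 16 tested genes had a log2 fold change above 0, with a median of 0.10. *Atp5b*, the catalytic beta subunit, had a signal of 1798, 1516 and 1725 in Sirt6mKO and of 1192, 1571 and 1368 in Ctrl. Ctrl 2 lay above Sirt6mKO 2, so that the groups overlapped, and the log2 fold change was 0.29 (SE 0.12, limma-trend adjusted p = 0.24). *Atp5a1*, the alpha subunit, had 1365, 1187 and 1343 against 1151, 1271 and 1190, with a log2 fold change of 0.11 (SE 0.11, limma-trend adjusted p = 0.66). Exons of *Atp5a1* overlap *Haus1* on the other strand.

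*Atp5g1*, *Atp5g2* and *Atp5g3* encode the same mature c subunit of the membrane rotor. *Atp5g3* held 73.2% ± 4.74 of their summed level per kilobase in Sirt6mKO and 75.2% ± 4.07 in Ctrl (SD, n = 3 per group; exact permutation p = 0.7). *Atp5g1* held 4.79% ± 1.20 and 4.33% ± 0.368, and *Atp5g2* the rest. These shares depend on the annotated lengths, of 4715 bases for *Atp5g1*, 753 for *Atp5g2* and 862 for *Atp5g3*. Before division by length, the mean signal of *Atp5g1* was 34.7, above the 25.3 of *Atp5g2* and below the 103 of *Atp5g3*. *Atp5l*, a subunit of the membrane part, had the lowest log2 fold change of complex V, at -0.32 (SE 0.18, limma-trend adjusted p = 0.40), with 54, 58 and 57 against 80, 57 and 77. Of its windows, 63.4% are shared with other genes, the highest share among tested members.

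Among the assembly factors, *Ndufaf8* had the highest log2 fold change of all members, 0.83 (SE 0.49, limma-trend adjusted p = 0.41), on a signal of 12, 7 and 7 in Sirt6mKO and of 6, 6 and 2 in Ctrl. *Cox7a2l*, which joins complexes III and IV into supercomplexes, had 212, 206 and 160 against 150, 229 and 210 and a log2 fold change of -0.02. The median over the 9 was 0.12, with 6 above 0.

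The small common shift did not run through all libraries. Over the 87 tested members, the median difference from the mean of the Ctrl libraries on the log2 scale was 0.19, -0.02 and 0.20 in replicates 1, 2 and 3 of Sirt6mKO, and -0.05, 0.14 and -0.07 in Ctrl. Sirt6mKO 2 thus stood at the control level and Ctrl 2 close to the raised Sirt6mKO libraries. For 58 of the 87 members (66.7%) Sirt6mKO 2 was the lowest Sirt6mKO library, which held for 31% of all tested genes. Ctrl 2 was the highest Ctrl library for 50 members (57.5%) against 33.3% of all tested genes. By their medians, Sirt6mKO 2 was also the lowest Sirt6mKO library and Ctrl 2 the highest Ctrl library in each of complexes I to V. In complexes I, II, III and V the medians were -0.01, -0.03, -0.04 and -0.03 in Sirt6mKO 2. Those of Ctrl 2 were 0.17, 0.08, 0.14 and 0.12. In complex IV, Sirt6mKO 1 and 3 had medians of 0.34 and 0.31, while the Ctrl libraries lay within 0.02 of their mean. Without Sirt6mKO 1, 58 members were above 0 with a median of 0.08, and without Ctrl 3 it was 57 with a median of 0.10. Without Sirt6mKO 2 the count was 72 and the median 0.20.

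**Figure D3:**
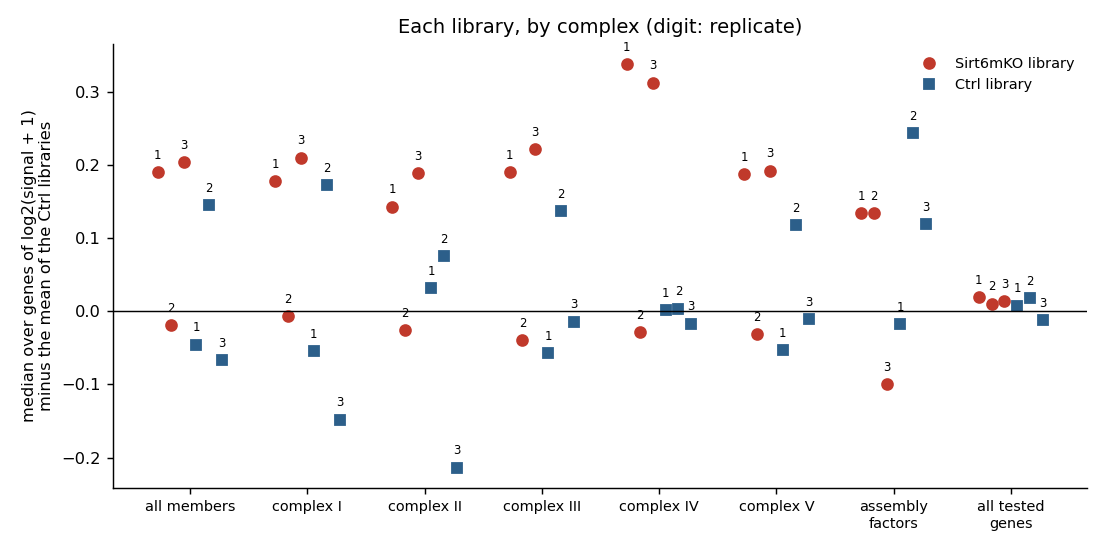
Median over the tested genes of each complex of log2(signal + 1) minus the mean of the 3 Ctrl libraries, 1 point per library (circles Sirt6mKO, squares Ctrl, digits the replicate). Sirt6mKO 1 and 3 lie near 0.2 and Sirt6mKO 2 near 0 over all members, Ctrl 2 lies at 0.14, and over all tested genes every library is near 0.

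In percent of the signal of a library, all 96 members held 0.477, 0.402 and 0.471 in replicates 1, 2 and 3 of Sirt6mKO and 0.390, 0.440 and 0.410 in Ctrl. Markers of other cells moved between the libraries as well. The 21 myofiber markers had a summed signal of 2946 to 5343 in Sirt6mKO and of 2388 to 2429 in Ctrl. Of the 20 tested, 18 had a log2 fold change above 0 with a median of 0.95, and 7 passed the adjusted p, all higher. Sirt6mKO 1 and 2 had the high myofiber sums, 5081 and 5343, whereas Sirt6mKO 1 and 3 had the high respiratory shares. The myofiber forms *Cox6a2*, *Cox7a1* and *Cox8b* stayed at 5 reads or fewer in all libraries. The 8 fibroblast markers summed to 9462 to 11559 in Sirt6mKO and 6553 to 10218 in Ctrl, sums held mostly by *Col3a1*, a collagen whose log2 fold change was 0.06. All 7 tested had a log2 fold change above 0 (median 1.39), and 3 passed the adjusted p. These were the collagen gene *Col1a2* (3.55, limma-trend adjusted p = 8.5e-05), *Col1a1* (1.94, limma-trend adjusted p = 0.047), in which the groups overlapped, and *Pdgfra*, a receptor of fibroblast lineage cells (2.16, limma-trend adjusted p = 0.027). *Ly6a*, which encodes the Sca1 of the sort, was at 0 to 2 in every library. The 4 mural markers summed to 3733 to 4953 and 2160 to 3315, sums held almost wholly by *Notch3*. Its log2 fold change was 0.61 (limma-trend adjusted p = 0.056). *Rgs5* and *Pdgfrb* had mean signals of only 28.8 and 16, with log2 fold changes of 0.53 and 0.09, so the sums do not measure mural cells. The 5 erythroid markers summed to 13 to 60 in Sirt6mKO and 23 to 545 in Ctrl, with the 545 in Ctrl 2. The 6 endothelial, 4 immune and 5 Schwann cell markers in the table summed to at most 573, 77 and 75 in any library. The endothelial sum was held mostly by *Tek* (log2 fold change -0.35, limma-trend adjusted p = 0.16). *Pecam1*, at a mean signal of 19.5, went the other way (1.05, limma-trend adjusted p = 0.30). The 14 MuSC markers summed to 17219 to 18678 and to 19108 to 21077. Of these, 10 had a log2 fold change below 0 (median over all 14, -0.11). *Pax7* passed the adjusted p as lower and *Cd34*, an antigen of the sort, as higher (0.60, limma-trend adjusted p = 0.031). The part of these markers in the respiratory chain values was not tested, and in bulk RNA fewer cells of a type and less RNA per cell cannot be told apart.

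**Figure D4:**
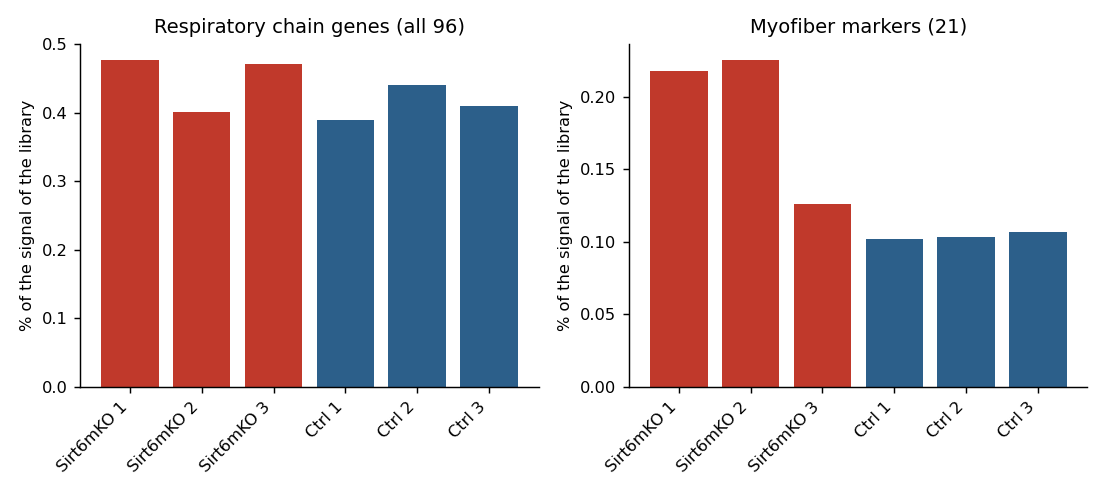
Share of the total signal of each library held by the 96 respiratory chain genes (left) and by 21 myofiber markers (right), in percent, bars from 0, 1 library per bar (red Sirt6mKO, blue Ctrl). The respiratory share is highest in Sirt6mKO 1 and 3 at 0.477 and 0.471, and the myofiber share is highest in Sirt6mKO 1 and 2.

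Levels of different genes were compared as signal per kilobase of the longest annotated transcript, over all 6 libraries. *Atp5b* stood highest, at 798 and between 622 and 938 in single libraries, followed by *Atp5a1* at 468, between 430 and 511. Their ranges did not overlap. *Cox4i1* at 285 and *Cox8a* at 259 came next and overlapped in range. The highest gene was *Ndufb9* in complex I at 187, *Sdha* in complex II at 132, *Uqcrb* in complex III at 167, and *Cox7a2l* among the assembly factors at 172. The ranges of *Ndufb9* and *Uqcrb* over single libraries overlapped those of other genes of their complexes. The median over tested genes was 84.8 in complex V, 78.3 in complex III, 70.2 in complex II, 56.8 in complex IV, 47.2 in complex I and 14.9 among assembly factors. *Cycs*, with a long transcript, was at 17.7. With the longest protein-coding transcript in its place, a choice made after seeing the data, the median of complex V was 127 and that of complex IV 69.5. By that length another complex III gene, at 221, stood above *Uqcrb* at 177.

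**Figure D5:**
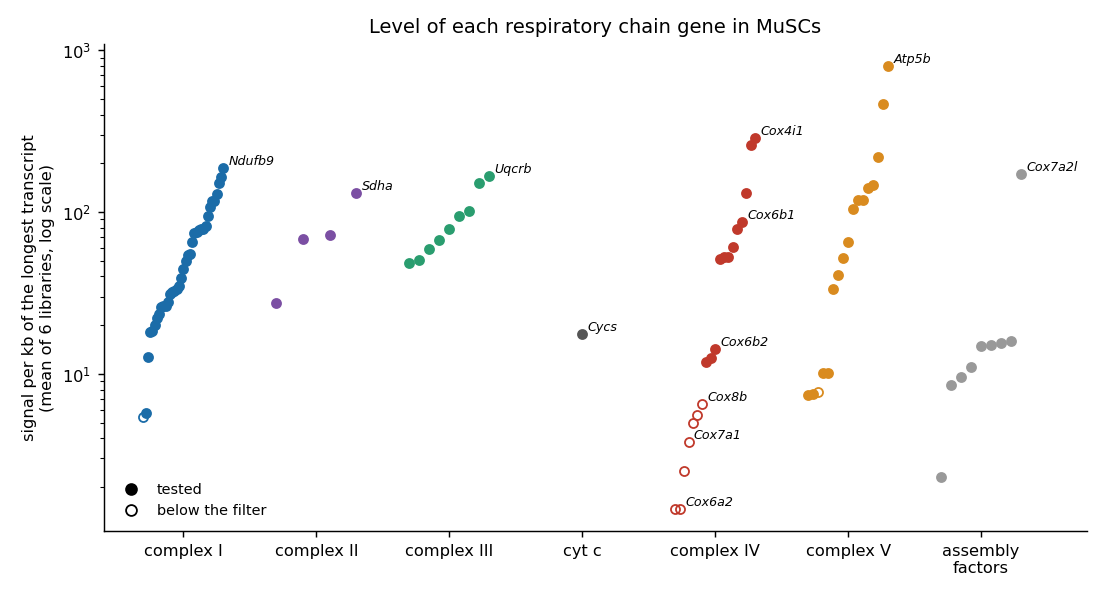
Signal per kilobase of the longest annotated transcript, mean of all 6 libraries on a log scale, for the 96 members by complex (filled, tested; open, mean signal under 5). *Atp5b* is the highest member at 798, and the isoforms *Cox6a2*, *Cox7a1* and *Cox8b* lie below the tested complex IV genes.

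The members are spread over 19 chromosomes, with at most 9 on any of them. The copies of respiratory chain genes in the mouse genome bear on how well their reads can be placed. Of the 87 tested members, 28 share at least 1 window of 75 bases, the read length in the labels, with the transcripts of a gene elsewhere, and in 9 of them over 20% of windows are shared. The authors left out reads on several regions, so the signal of these genes may miss part of their reads. Exons of 31 tested members overlap those of another gene, mostly on the other strand, and whether the counting used the strand is not stated in the sources used here. Among the 41 tested members with neither, 32 had a log2 fold change above 0, with a median of 0.08.

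In the wider mitochondrial pathways 2 of 180 tested genes (1.11%) passed the adjusted p, against 4.52% of all tested genes. Of 43 tested assembly factors outside the *Nduf* and *Cox7a2l* genes, 25 had a log2 fold change above 0 with a median of 0.05, and none was called with or without the minimum of 2-fold. In the TCA cycle and pyruvate dehydrogenase, which supply the chain with NADH and succinate, 12 of 17 genes were above 0 with a median of 0.05 and none was called. The most abundant of them were *Ogdh*, *Pdha1* and *Cs*, with log2 fold changes of 0.05, 0.28 and -0.08. Of the 77 genes of the mitochondrial ribosome, which makes the mitochondrially encoded subunits, 30 were above 0 with a median of -0.08, and none was called.

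Among 22 tested electron carriers and membrane transporters, 15 were above 0 with a median of 0.04, and 1 was called. *Ucp2*, a carrier of the inner membrane named as an uncoupling protein, had a signal of 215, 321 and 295 in Sirt6mKO and of 95, 68 and 154 in Ctrl. It rose by a log2 fold change of 1.44 (SE 0.25, limma-trend adjusted p = 0.0057), a call that was lost at an adjusted p of 0.053 without Sirt6mKO 2. The ADP/ATP carrier *Slc25a4* and the phosphate carrier *Slc25a3* had log2 fold changes of 0.02 and 0.03.

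Of 21 tested genes of mitochondrial biogenesis and transcription, 11 were above 0 with a median of 0.00. *Ppargc1b*, a coactivator of respiratory chain genes, had a signal of 82, 95 and 79 in Sirt6mKO and of 58, 48 and 50 in Ctrl. It rose by a log2 fold change of 0.70 (SE 0.17, limma-trend adjusted p = 0.035), under the minimum of 2-fold. With 1 library left out, its call held without Ctrl 1 and was lost in the other 5 fits. The related *Ppargc1a* had a log2 fold change of 0.90 (limma-trend adjusted p = 0.082), and *Yy1*, whose motif was searched above, of -0.02.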

How the data were processed

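RNA-seq libraries of 3 Sirt6mKO and 3 control samples were used as labelled. According to the methods, the authors aligned reads to mm10 (GRCm38) with STAR, counted them per gene with featureCounts, left out reads on several genes or regions and used DESeq2. Read trimming is given as Reaper in the methods and as Trimmomatic 0.39 in the submitters' processing notes, which also name STAR 2.7.10a and featureCounts 2.0.2, and the labels name another library kit than the methods. The deposited values are a signal, read here from the gaps between occupied values as reads divided by 1 size factor per library (0.558 to 1.37) and rounded by the authors.

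Genes whose signal averaged at least 5 were fitted on log2(signal + 1) with limma-trend (limma 3.58.1, R 4.3.3) without further scaling, two-sided, with Benjamini-Hochberg adjustment over all tested genes. The call rule was an adjusted p not above 0.05 with a change of 2-fold or more, or the adjusted p alone. The procedure was tested on simulated data. Tables were handled in Python 3.11.15 with pandas 2.3.3. The members and lists were chosen with earlier results of these data known. Named genes are the label's markers, chosen core subunits (not all of them), isoform pairs, called members and the 5 highest and 5 lowest log2 fold changes. They also include the highest level of each complex, and in other lists called genes and up to 3 of the highest signal. Of these, 1 member is not reported here and enters only counts, sums and medians. *Ppargc1a*, *Ly6a*, *Ndufb1-ps* and *Cox5b-ps* were named after their values were seen. Positions of all 96 members are the same in the table and in GENCODE for GRCm38, and promoters came from RefSeq (GRCm38.p6), in which 76 members were matched.

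Alternatives changed 1 choice at a time: scaling, filter, pseudocount (0.1 or 5), robust empirical Bayes, limma voom on approximated reads, a block for the replicate number, a stricter adjusted p (0.01), and fits without each library in turn. The length used for levels was varied after the data were seen.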

Additional observations from a re-analysis of the deposited data

How the results depend on the processing

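Over the alternatives, the median log2 fold change of the respiratory chain genes stayed between 0.07 and 0.20, above 0 throughout, and 57 to 75 members were above 0, apart from 44 of the 53 with a mean signal of at least 50. With 1 library left out, the median of complex II ran from -0.011 to 0.19. The 1 called member, *Cox6b2*, kept its direction (log2 fold change -1.98 to -1.14) and was called under 8 of 15 alternatives. The count of called members, with or without the 2-fold minimum, was 0 with no filter on low values, with a mean signal of at least 50 (where *Cox6b2* was not tested), at an adjusted p of at most 0.01 and in each fit that left out a library (0 to 0). Over all genes, a mean signal of at least 50 gave 76 higher and 52 lower genes with the 2-fold minimum and 220 and 164 without it. An adjusted p of at most 0.01 gave 93 and 77, and 130 and 103. With 1 library left out the 4 counts ran from 88 to 294 higher and 81 to 151 lower with the minimum, and from 127 to 443 and 106 to 240 without it.

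For the lists, the biogenesis count of 1 was 0 with no filter and at an adjusted p of at most 0.01, and 0 to 1 with a library left out. The carrier count was 0 to 1 and the TCA cycle count 0 to 1 with a library left out. The biogenesis median ran from -0.010 to 0.091 and the carrier median from 0.0071 to 0.13 in these fits, and the median of assembly factors outside the rule was -0.10 with a mean signal of at least 50. With the longest protein-coding transcript, chosen after seeing the data, the median signal per kb was 69.5 in complex IV and 127 in complex V. The cause of these moves was not tested.

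Members with values near 0 changed sign. The *Atp5g3* log2 fold change was -0.0095 with limma voom. With 1 library left out, *Atp5g3* ran from -0.096 to 0.17, *Cox7a2* from -0.056 to 0.26, *Cox7a2l* from -0.20 to 0.11, *Ndufa4* from -0.089 to 0.31, *Ndufs8* from -0.067 to 0.051, *Sdhb* from -0.18 to 0.15, *Uqcrc1* from -0.029 to 0.10 and *Uqcrfs1* from -0.047 to 0.15

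Same-numbered samples of the groups had correlations of their deviations from the group means of 0.02, 0.07 and 0.19, so that the numbers were not taken to pair the samples. With the replicate number as a block, 1 member was called as without it, and the biogenesis count was 2. Low reads limit *Cox6b2*, the restricted isoforms and *Ndufaf8*.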
